A study of Mus musculus with 10 samples.

Results

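*Hmgcs1*, *Sqle*, *Idi1*, *Fdps*, *Lss*, *Cyp51*, *Insig1* and *Srebf2* are 8 genes of cholesterol synthesis and its feedback control. They were chosen by name for their role in the pathway and make up 8 of the 45232 gene entries in the expression matrix, and each of them had a value above 0 in every library. Total RNA depleted of ribosomal RNA was sequenced from NIH3T3 cells, a line of mouse fibroblasts, in which *Lin37* had been disrupted with a CRISPR/Cas9 nickase, either in exon 4 or in exon 6. LIN37 is a subunit of the DREAM complex, which represses cell cycle genes in resting cells. Knockout (KO) libraries came from cells carrying an episome for luciferase, and rescue libraries came from the same clone carrying an episome for wild-type *Lin37*. Every cell line therefore carried the knockout, a doxycycline-inducible episome held under hygromycin selection and a co-expressed GFP, and every line was grown in 10% fetal calf serum (FCS) and then kept at 0% FCS for 60 h before RNA was taken. Each knockout is 1 clone, so a difference between the exon 4 and exon 6 clones cannot be told apart from other differences between 2 cell lines, and the parental NIH3T3 line was not analysed here. Each of the 4 groups held 2 biological replicates, and replicate 2 of both exon 6 groups was sequenced as 2 technical libraries (libraries 2 and 3), which gave 10 libraries and 8 biological replicates.

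Cells make cholesterol from acetyl-CoA through the mevalonate pathway, whose early steps build isoprenoid units and whose late steps turn squalene into sterols. When sterols in the endoplasmic reticulum run low, the escort protein SCAP carries the transcription factor SREBP2, the product of *Srebf2*, to the Golgi, where it is cut and released to switch on genes of the pathway and of sterol uptake. When sterols are plentiful, INSIG1 holds SCAP in the endoplasmic reticulum, and since *Insig1* and *Srebf2* are themselves SREBP targets, the pathway closes on itself.

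Values are RPKM (reads scaled to transcript length and to the library's total) after rescaling of each library to a common level. The scaling factors ran from 0.324 to 2.70 over the 10 libraries and were higher in KO than in rescue in each same-numbered pair, so KO values were divided by larger factors before any comparison. The depth that the smallest steps in the RPKM values imply ran from about 21900000 to about 91100000 reads per library, and it placed between about 24.3 reads (*Fdps*, exon 4 rescue replicate 2) and about 9420 reads (*Srebf2*, exon 4 KO replicate 1) behind a member's value. *Lin37*, the targeted gene, was at 0.268 to 0.417 RPKM in the KO libraries of both clones, against 2.54 and 2.12 in exon 4 rescue and 4.41 to 5.11 in exon 6 rescue, so it was lower in every KO library than in any rescue library, as the labels have it. Fibroblast markers summed to between 470 and 829 RPKM per library, whereas markers of adipocytes, epithelium, leukocytes, endothelium and hepatocytes each summed to no more than 1.57 RPKM, with the adipocyte genes *Adipoq* and *Plin1* at means of 0.0116 and 0.00505 RPKM. These are bulk samples, in which fewer cells of a type and less RNA per cell cannot be told apart.

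SREBP proteins bind sterol response elements, short sequences near the start of their targets, usually close to a site for the CCAAT-binding factor NF-Y. The promoter windows of the members are shown because the 8 genes share this known mode of control and their RNA levels are compared below. RefSeq windows on GRCm38.p6, from 250 bases before to 50 bases after the annotated start, were given for 6 of the 8 genes, all but *Sqle* and *Fdps*. They are the reference sequence and were not read from NIH3T3 cells. The classical sterol response element, spelled TCACCCCA and searched on both strands, occurred in the windows of *Hmgcs1* and *Srebf2* (2 of 6) against 1.56% of all 32851 windows. In the stretches below, capitals mark TCACCCCA and the CCAAT box, which reads ATTGG where it lies on the other strand.
Hmgcs1, chr13:119690151-119690350, plus strand: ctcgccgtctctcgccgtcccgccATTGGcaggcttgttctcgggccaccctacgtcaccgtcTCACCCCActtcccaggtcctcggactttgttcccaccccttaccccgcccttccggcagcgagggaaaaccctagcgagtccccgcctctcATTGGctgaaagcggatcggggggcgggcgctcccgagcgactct
Srebf2, chr15:82147069-82147180, plus strand: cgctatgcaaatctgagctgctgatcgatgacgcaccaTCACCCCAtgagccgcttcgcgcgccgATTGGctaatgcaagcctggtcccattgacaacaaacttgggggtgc
Insig1, chr5:28071167-28071226, plus strand: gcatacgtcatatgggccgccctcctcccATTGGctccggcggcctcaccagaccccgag
Lss, chr10:76531515-76531574, plus strand: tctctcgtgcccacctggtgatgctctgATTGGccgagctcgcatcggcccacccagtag
Idi1, chr13:8885553-8885582, plus strand: tccagctgATTGGcgagcccgggcatggtc
Cyp51, chr5:4104709-4104738, minus strand: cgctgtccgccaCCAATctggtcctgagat

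The CCAAT box occurred in 6 of the 6 windows against 37.4% of all windows, and GGGCGG, the core of an Sp1 box, in 6 of 6 against 35.7%, both on either strand. TTTGAA, the core of the cell cycle genes homology region (CHR) through which DREAM contacts many cell cycle promoters, occurred in 0 of the 6 windows and in 17.9% of all windows. Absence of these letters from a window of this length says only that they are not in it. The *Hmgcs1*, *Srebf2*, *Insig1* and *Lss* stretches lie upstream of the annotated start. The *Idi1* and *Cyp51* stretches lie upstream of the RefSeq start but inside the gene as GENCODE vM21 annotates it on GRCm38.

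*Srebf2* was the most abundant of the 8 transcripts and sat at the 97.0th percentile of expressed genes, with 14.5 ± 2.79 RPKM (SD, n = 8 biological replicates). *Cyp51* followed with 8.60 ± 4.50 and *Hmgcs1* with 8.27 ± 3.25, then *Insig1* with 3.95 ± 1.64 and *Sqle* with 3.58 ± 1.60. The least abundant were *Lss* with 1.00 ± 0.431, *Fdps* with 0.895 ± 0.499 and *Idi1* with 0.880 ± 0.368. Some neighbours in this order were separated and others were not. *Hmgcs1* was above *Insig1* and *Sqle* above *Lss* in 8 of 8 replicates, and *Srebf2* was above *Cyp51* in 7 of 8. Within the remaining pairs of neighbours the order changed between replicates: *Cyp51* was above *Hmgcs1* in 4 of 8, *Insig1* above *Sqle* in 4 of 8, *Lss* above *Fdps* in 5 of 8 and *Fdps* above *Idi1* in 4 of 8.

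**Figure D1:**
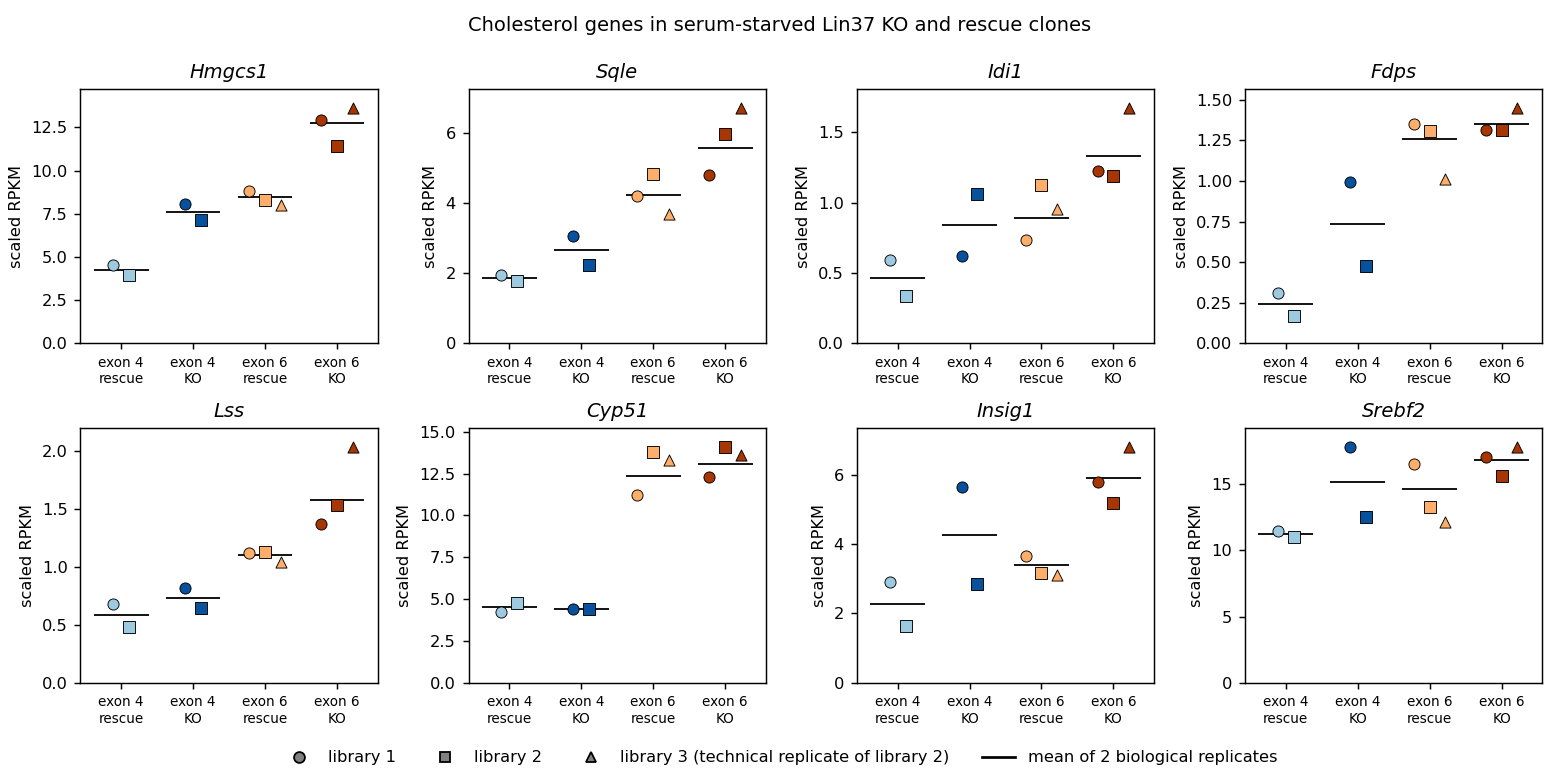
Scaled RPKM of each of the 8 genes (vertical axes, linear from 0) in the 10 libraries, by clone and genotype, where symbols are libraries and horizontal lines are group means over 2 biological replicates. *Hmgcs1* lies at 7.12 and 8.04 RPKM in exon 4 KO against 3.97 and 4.56 with rescue, and *Cyp51* lies between 11.2 and 14.1 RPKM in the exon 6 clone against 4.23 to 4.77 in the exon 4 clone.

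To ask whether loss of LIN37 in resting cells moved these transcripts, KO was compared with rescue over both clones, with the clone as a covariate. *Hmgcs1*, which encodes the synthase that makes HMG-CoA, rose by 0.66 on the log2 scale and was the 1 member of 8 that passed the test. Across all genes tested, 1.61% were called higher in KO. All 8 members had positive changes, against 41.0% of all genes, and their median log2 change was 0.38 against -0.03 for all genes. *Insig1* had the largest estimate of the 8 but varied more between replicates and did not pass, and *Cyp51* showed a change close to 0 in both clones.

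Summed over the 8 members, the exon 4 clone had 41.4 and 31.4 RPKM (KO) against 26.7 and 24.2 (rescue), and the exon 6 clone had 56.8, 56.3 and 63.7 (KO) against 47.6, 46.9 and 43.3 (rescue). KO libraries were above all rescue libraries of the same clone in this sum. Of the 8 members, 6 were higher in KO in all 4 same-numbered pairs, against 8.96% of all genes, and the exceptions were *Fdps* and *Cyp51*.

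*Srebf2* encodes SREBP2, the factor that drives the pathway. The gene lies at chr15:82147181-82205379 (plus strand, GRCm38) and was measured at 17.8 and 12.5 RPKM (KO) and 11.5 and 11.0 (rescue) in the exon 4 clone. The exon 6 clone had 17.0, 15.6 and 17.8 RPKM (KO) and 16.5, 13.3 and 12.2 (rescue). The KO replicates were above the rescue replicates in the exon 4 clone, while in the exon 6 clone the KO library 2 lay below the rescue library 1 and the replicates were apart only once the technical libraries had been averaged. The change over both clones was 0.30 ± 0.14 (log2, SE), with a 95% confidence interval of -0.01 to 0.62, and did not pass limma's test (adjusted p = 0.588).

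*Insig1* (chr5:28071363-28078662, plus strand), the sterol-dependent brake on SREBP processing, was at 5.65 and 2.85 RPKM (KO) and 2.91 and 1.63 (rescue) in the exon 4 clone. The exon 6 libraries gave 5.79, 5.19 and 6.79 RPKM (KO) and 3.64, 3.18 and 3.09 (rescue). The exon 6 groups were fully apart, whereas in the exon 4 clone the 2 replicates of each genotype differed so much that KO replicate 2 lay below rescue replicate 1. The change over both clones was 0.74 ± 0.21 (log2, SE; 95% confidence interval 0.26 to 1.21) and did not pass limma's test (adjusted p = 0.211). With the replicate number as a block, which takes up the difference between replicates 1 and 2 that both genotypes shared, *Insig1* passed (adjusted p = 0.00940). For the exon 6 clone alone the change was 0.72 ± 0.12 (limma adjusted p = 0.0771).

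*Hmgcs1* joins acetyl-CoA to acetoacetyl-CoA at an early step of the mevalonate pathway. It lies at chr13:119690379-119708260 (plus strand) and was at 8.04 and 7.12 RPKM (KO) and 4.56 and 3.97 (rescue) in the exon 4 clone. Its level in the exon 6 clone was 12.9, 11.4 and 13.6 RPKM (KO) and 8.79, 8.28 and 8.03 (rescue). No KO value overlapped a rescue value of the same clone, and the group means were apart by 1.78-fold (exon 4 clone) and 1.50-fold (exon 6 clone). The log2 change over both clones was 0.66 ± 0.10 (SE; 95% confidence interval 0.44 to 0.89; limma adjusted p = 0.00956). Taken alone, with 2 replicates a group, the exon 4 clone gave 0.76 ± 0.18 and the exon 6 clone 0.56 ± 0.11 (limma adjusted p = 0.128), and neither passed. In the exon 4 clone the lowest limma adjusted p of any member was 0.735.

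The call for *Hmgcs1* was lost without exon 6 KO replicate 1 (limma adjusted p = 0.0545) and without exon 6 rescue replicate 2 (limma adjusted p = 0.0529). With the log2 scaling factor of each replicate as a further covariate, an alternative added after the factors had been seen, the change was 0.54 and did not pass (limma adjusted p = 0.0911). In the same fit the estimates were 0.19 for *Insig1*, 0.07 for *Fdps* and 0.04 for *Srebf2*, none of which passed. Since the factors were higher in KO in each same-numbered pair, this covariate can also take up part of a genotype difference.

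*Idi1* and *Fdps* build the isoprenoid chain: IDI1 interconverts the pathway's C5 building blocks and FDPS joins them into farnesyl diphosphate. *Idi1* (chr13:8885501-8892451, plus strand) was at 0.619 and 1.06 RPKM (KO) and 0.594 and 0.336 (rescue) in the exon 4 clone, and at 1.23, 1.19 and 1.67 (KO) and 0.736, 1.13 and 0.951 (rescue) in the exon 6 clone. KO values were above rescue values in each clone, with little between the nearest ones, and the change of 0.44 ± 0.14 (log2, SE) did not pass limma's test (adjusted p = 0.337).

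*Fdps* (chr3:89093588-89101959, minus strand) differed most between the clones in how KO compared with rescue. The exon 4 clone had 0.994 and 0.477 RPKM (KO) and 0.314 and 0.168 (rescue), group means that were 3.06-fold apart. The exon 6 clone had 1.31, 1.32 and 1.45 RPKM (KO) and 1.35, 1.31 and 1.01 (rescue), a ratio of means of 1.07. The genotypes did not overlap in the exon 4 clone and overlapped in the exon 6 clone. The log2 change was 0.71 ± 0.28 (SE) for the exon 4 clone, 0.08 for the exon 6 clone and 0.39 ± 0.18 over both (limma adjusted p = 0.590). The difference of the changes, exon 6 minus exon 4, was -0.64 ± 0.30 on the log2 scale, with a 95% confidence interval of -1.35 to 0.07 that includes 0 (limma adjusted p = 0.997).

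The last enzymes act on squalene and sterols. *Sqle* (chr15:59315077-59331192, plus strand) encodes squalene epoxidase, which adds the first oxygen, and was at 3.06 and 2.24 RPKM (KO) and 1.93 and 1.79 (rescue) in the exon 4 clone. The exon 6 clone had 4.80, 5.96 and 6.71 RPKM (KO) and 4.21, 4.82 and 3.70 (rescue). KO was above rescue over the replicates of both clones, although the exon 6 rescue library 2 was level with the exon 6 KO library 1. The change was 0.38 ± 0.12 (log2, SE; 95% confidence interval 0.10 to 0.65; limma adjusted p = 0.305).

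*Lss* (chr10:76531588-76557138, plus strand) encodes the cyclase that folds the oxidised squalene into lanosterol. It was at 0.815 and 0.650 RPKM (KO) and 0.680 and 0.485 (rescue) in the exon 4 clone, and at 1.37, 1.54 and 2.04 (KO) and 1.12, 1.13 and 1.05 (rescue) in the exon 6 clone. The genotypes were apart in the exon 6 clone and overlapped in the exon 4 clone, and the change of 0.28 ± 0.11 (log2, SE) did not pass limma's test (adjusted p = 0.504).

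*Cyp51* (chr5:4081145-4104746, minus strand) encodes the demethylase that acts next on lanosterol, and its KO and rescue values lay together in each clone. For the exon 4 clone they were 4.40 and 4.43 RPKM (KO) and 4.23 and 4.77 (rescue), and for the exon 6 clone 12.3, 14.1 and 13.6 (KO) and 11.2, 13.8 and 13.3 (rescue). The change was 0.03 ± 0.10 (log2, SE) with a 95% confidence interval of -0.20 to 0.26 (limma adjusted p = 0.960). The upper end of that interval lies below the estimates for the 7 other members, the lowest of which was 0.28 (*Lss*), and the differences between members were not tested.

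**Figure D2:**
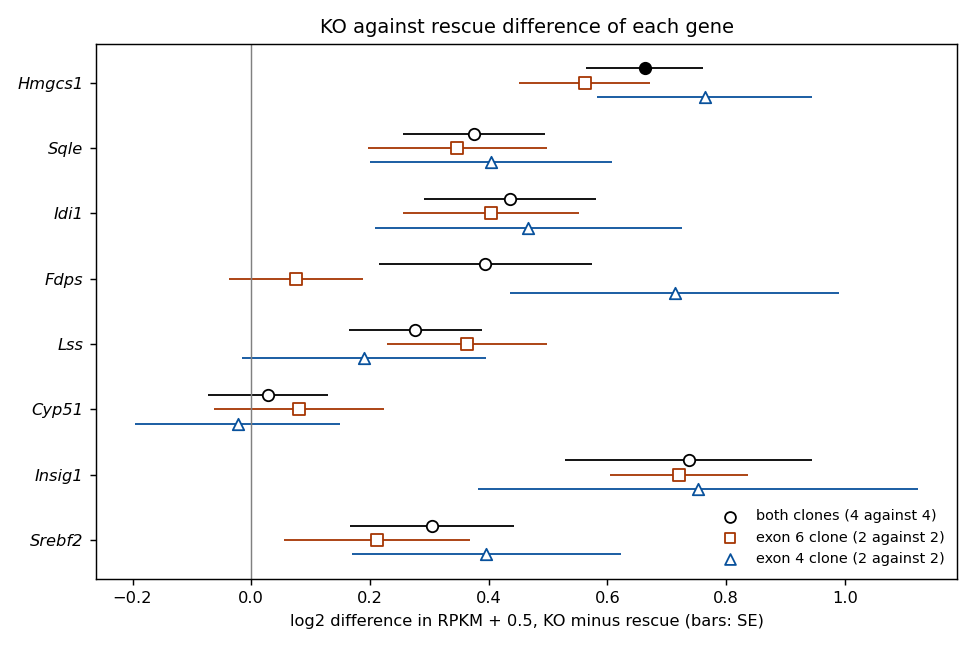
Log2 change of KO against rescue for the 8 genes over both clones and in each clone, from limma on log2(RPKM + 0.5), with bars of 1 SE and a filled symbol for a change past the test. *Hmgcs1* at 0.66 over both clones is the member past the test, *Cyp51* sits at 0.03, and *Fdps* lies at 0.71 (exon 4 clone) and 0.08 (exon 6 clone).

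Within the exon 6 clone, 0 of 8 members passed the test and limma called 1.24% of all genes higher in KO. At an unadjusted p under 0.05, 4 of 8 members and 1119 of 15301 genes were higher. The KO replicates lay above the rescue replicates without overlap for 6 of 8 members, all but *Fdps* and *Cyp51*, against 21.8% of all genes. Within the exon 4 clone limma called 0 of 8 members and 0% of all genes higher, and 2 of 8 members and 426 of 18751 genes that were higher in KO had an unadjusted p under 0.05. The targeted gene *Lin37*, at -1.84, did not pass in that fit either (limma adjusted p = 0.167), so its 0 of 8 says little about the members. There 5 of 8 members (*Hmgcs1*, *Sqle*, *Idi1*, *Fdps* and *Srebf2*) were above rescue without overlap, against 11.4% of all genes. For the difference between the clones' changes limma called 0 of 8 members and 0% of all genes, and besides *Fdps* the members' estimates ran from -0.20 to 0.17.

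The scaling factors differed with genotype, and in each clone a KO and a rescue library with close but unequal factors could be compared. The factors were 0.896 (KO library 2) and 1.06 (rescue library 1) in the exon 6 clone. In the exon 4 clone they were 0.601 (KO replicate 2) and 0.722 (rescue replicate 1). Each pair set replicate 2 against replicate 1, so differences between replicate numbers also enter these ratios. For the exon 6 clone (KO library 2 over rescue library 1) the ratio was 1.30 for *Hmgcs1*, 1.43 for *Insig1*, 1.61 for *Idi1*, 1.42 for *Sqle*, 1.37 for *Lss*, 1.26 for *Cyp51*, 0.974 for *Fdps* and 0.946 for *Srebf2*. For the exon 4 clone (KO replicate 2 over rescue replicate 1) it was 1.56 for *Hmgcs1*, 1.79 for *Idi1*, 1.52 for *Fdps*, 1.16 for *Sqle*, 1.09 for *Srebf2*, 1.05 for *Cyp51*, 0.977 for *Insig1* and 0.955 for *Lss*. *Hmgcs1*, *Idi1*, *Sqle* and also *Cyp51*, whose KO change over all replicates lay near 0, were higher in KO in both pairs, and *Insig1* in 1 of them. Between the technical libraries 2 and 3, which came from the same sample, the members' ratios ran from 0.965 to 1.41 (exon 6 KO) and from 0.768 to 0.974 (exon 6 rescue), so technical spread reached the size of several members' KO changes. The technical libraries also differed in factor, with 0.324 and 1.73 in exon 6 rescue, where the members summed to 46.9 and 43.3 RPKM, and 0.896 and 2.70 in exon 6 KO, where they summed to 56.3 and 63.7. Neither the covariate fit, whose factors differed with genotype, nor these pairs can separate library scaling from genotype. The part that library scaling plays in the changes was not tested.

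**Figure D3:**
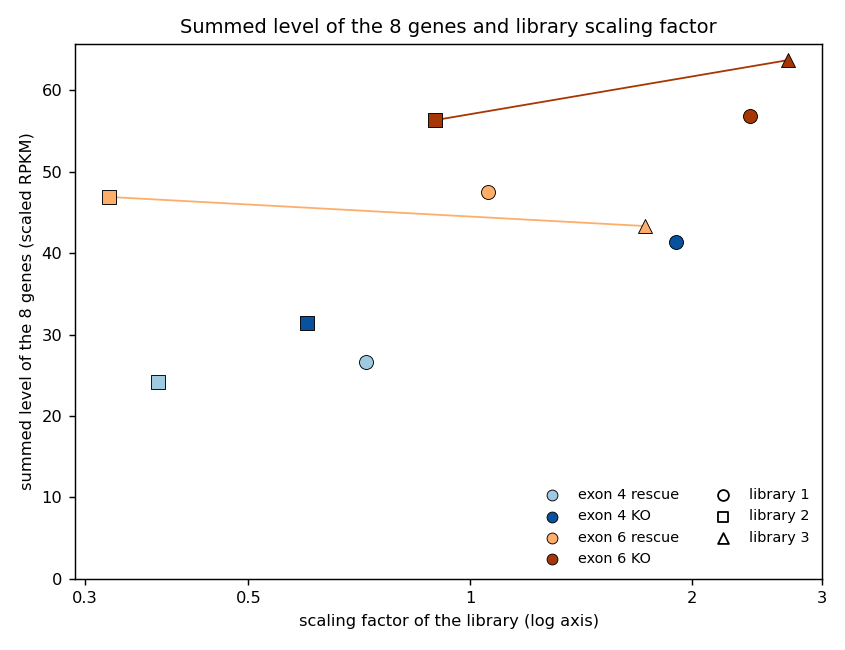
Summed scaled RPKM of the 8 genes in each of the 10 libraries (vertical axis) against the library's scaling factor (horizontal axis, log scale), with colour for clone and genotype and a line between technical libraries of the same sample. In each clone the KO libraries have the higher sums, while factors of KO and rescue libraries overlap; sums run from 31.4 to 41.4 RPKM (exon 4 KO) and from 56.3 to 63.7 (exon 6 KO).

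The 8 genes also differed between the clones. With the genotype as a covariate, 5 of 8 members were higher in the exon 6 than in the exon 4 clone, where limma called 6.84% of all genes higher and 6.71% lower, or 1154 and 1132 genes. With the RPKM as deposited the split over all genes was 2484 higher and 261 lower. The members' median log2 difference was 0.74 against -0.05 for all genes, and 5 of 8 were above the exon 4 clone without overlap, against 9.31% of all genes. *Cyp51* differed most, by 1.41 ± 0.10 on the log2 scale (SE; limma adjusted p = 0.000215), from a mean of 4.46 ± 0.229 to 12.7 ± 1.21 RPKM (SD, n = 4 in each clone), and it was the member whose KO change lay nearest to 0. *Sqle* was higher by 0.98 ± 0.12 (adjusted p = 0.00192), *Fdps* by 0.93 ± 0.18 (adjusted p = 0.0128), *Hmgcs1* by 0.81 ± 0.10 (adjusted p = 0.00178) and *Lss* by 0.66 ± 0.11 (adjusted p = 0.00740).

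With the genotype as a covariate, the genes of the feedback loop and *Idi1* did not pass. The difference was 0.51 for *Insig1* (95% confidence interval 0.04 to 0.99; limma adjusted p = 0.138), 0.50 for *Idi1* (0.17 to 0.83; adjusted p = 0.0560) and 0.26 for *Srebf2* (-0.05 to 0.57; adjusted p = 0.235). With the replicate number alone as a block, which ties same-numbered replicates of the 2 clones, *Idi1* passed (limma adjusted p = 0.0470). Nothing in the labels says that these replicates were related. Over the alternative fits *Idi1* passed in 4 of 20, *Insig1* in 2 of 21 and *Srebf2* in 0 of 21. *Srebf2*, whose product acts on the others, thus had the smallest clone difference of the 8, with means of 13.2 ± 3.13 RPKM (exon 4 clone) and 15.7 ± 2.02 (exon 6 clone; SD, n = 4).

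The 5 members called between the clones were also those without overlap between the clones. Ratios above 1 in both genotypes follow from that and add no support, so only their sizes are given. Between the rescue groups the exon 6 over exon 4 ratio was 2.75 for *Cyp51*, 2.28 for *Sqle*, 1.99 for *Hmgcs1*, 1.90 for *Lss* and 5.22 for *Fdps*. Between the KO groups it was 2.97 for *Cyp51*, 2.10 for *Sqle*, 1.68 for *Hmgcs1*, 2.15 for *Lss* and 1.83 for *Fdps*. The remaining members, whose replicates overlapped between the clones, had ratios of 1.91 (rescue) and 1.58 (KO) for *Idi1*. For *Insig1* the ratios were 1.49 and 1.39, and for *Srebf2* 1.30 and 1.11. *Fdps* was again the member for which the genotypes differed most, since its lowest values, 0.314 and 0.168 RPKM, were those of exon 4 rescue. Among fibroblast markers, *Thy1* (2.52), *Col1a1* (1.20) and *Col1a2* (0.87) were also higher in the exon 6 clone and *Pdgfrb* (-0.89) was lower on the log2 scale. *Pdgfrb* was at -0.05 with the RPKM as deposited (limma adjusted p = 0.934), and *Col1a2* passed in 14 of 21 alternatives and in neither fit without an exon 6 KO replicate (adjusted p = 0.0668 and 0.0593). The part of such clone differences in the members' values was not tested.

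Other enzymes of cholesterol synthesis were compared as a list of 15 genes. Against genotype, 0 of 15 passed and 13 of 15 had positive changes, with a median of 0.37. Over all genes 1.61% were called higher, 41.0% had positive changes and the median was -0.03. At an unadjusted p under 0.05, 7 of these 15 and 854 of all 16866 genes were higher. *Msmo1* and *Nsdhl*, which act after *Cyp51* in removing methyl groups from sterols, had log2 values of 0.53 (limma adjusted p = 0.0784) and 0.63 (adjusted p = 0.137) that did not pass. *Fdft1*, the squalene synthase between *Fdps* and *Sqle*, had a log2 value of -0.15 and *Ebp* one of -0.12.

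In the clone comparison limma called 6.84% of all genes higher in the exon 6 clone, with a median of -0.05. Of these 15 enzymes 12 were higher, with a median of 0.66. They included *Nsdhl* at 1.40 (limma adjusted p = 0.00134) and *Mvd* at 1.20 (adjusted p = 0.0110). *Acat2*, *Ebp* and *Fdft1* had log2 values of 0.62, 0.18 and -0.04 and did not pass. The sterol enzymes *Nsdhl*, *Sc5d* and *Hsd17b7* passed in 21 of 21 alternative fits. *Lbr* passed in 17 of 21, and its call was lost without either exon 6 KO replicate, at log2 values of 0.52 and 0.53. *Mvk* passed in 14 of 21, *Pmvk* in 13 of 21, *Tm7sf2* in 13 of 20 and *Dhcr7* in 10 of 20, and each of these calls was lost with the scaling factor as a covariate and without either exon 6 KO replicate, at adjusted p from 0.0541 (*Mvk*) to 0.107 (*Dhcr7*) in the latter fits.

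**Figure D4:**
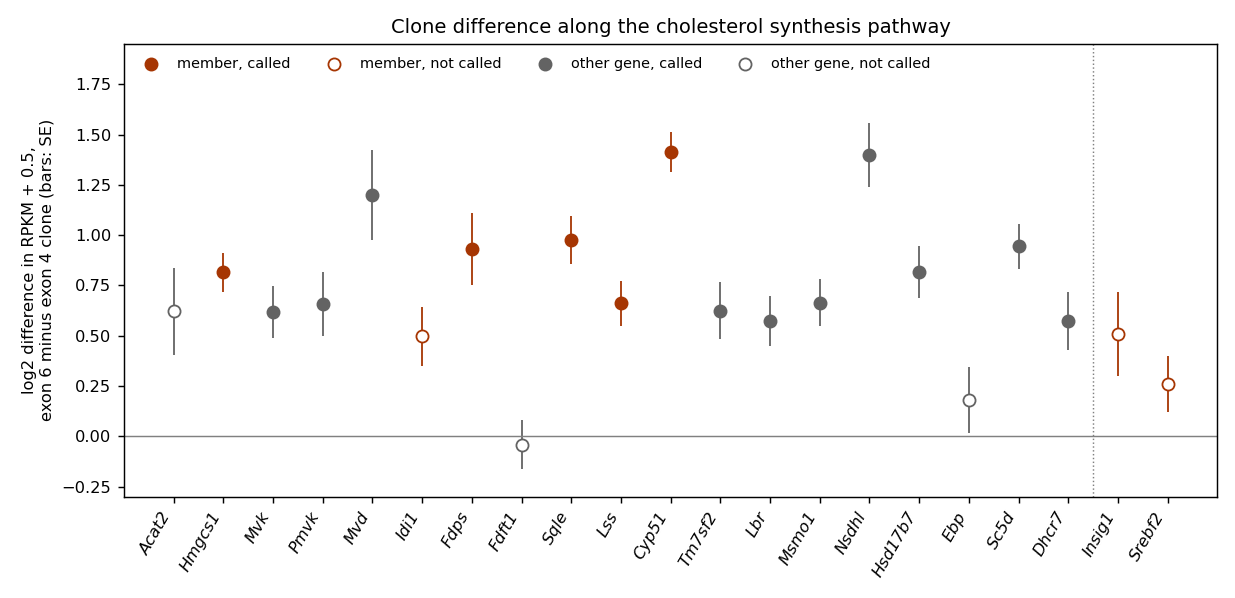
Log2 difference of the exon 6 against the exon 4 clone (vertical axis, limma on log2(RPKM + 0.5), bars of 1 SE) for the members and other named enzymes in pathway order and, right of the dotted line, *Insig1* and *Srebf2*, with members in colour and filled points past the test. *Cyp51* at 1.41 and *Nsdhl* at 1.40 are the highest, and *Fdft1* at -0.04 is the lowest.

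Of the 8 uptake and transport genes tested, 0 passed limma's test against genotype, where 1.61% of all genes were called higher. Positive changes were seen in 5 of 8, with a median of 0.11, beside 41.0% and -0.03 over all genes. *Stard4*, a carrier of sterols between membranes, had a log2 value of 0.46 (adjusted p = 0.123) and *Lipa*, a lysosomal lipase, one of -0.15. Between the clones limma called 1 of these 8 genes higher and 2 lower in the exon 6 clone, beside 6.84% and 6.71% of all genes. Their median was 0.02, and 4 of 8 were positive. The 2 lower genes were *Mylip*, which encodes a ubiquitin ligase of sterol uptake, at -0.58 (limma adjusted p = 0.0131) and *Lrp1*, a receptor of many ligands, at -0.98 (adjusted p = 0.00275). With the RPKM as deposited *Mylip* had the opposite sign (0.29) and *Lrp1* was at -0.08 (adjusted p = 0.910), so both calls were lost, and that of *Mylip* was also lost without either exon 6 KO replicate (adjusted p = 0.0530 and 0.0555).

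A further list of 8 genes covers the machinery that processes SREBP and related sterol-sensing proteins. Of these genes 0 passed limma's test in either comparison. Over all genes 1.61% were called higher in KO, and 6.84% higher and 6.71% lower in the exon 6 clone. Against genotype 1 of 8 was positive, with a median of -0.08, beside 41.0% and -0.03 over all genes. *Insig2*, which acts like *Insig1* but is no classical SREBP target, had a log2 value of -0.34 (limma adjusted p = 0.237) and *Scap* one of -0.18. Between the clones *Rnf139* was at -0.23 and *Srebf1* at 0.19.

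Reads of several members can be shared with copies elsewhere. Of the stretches of 31 bases in a member's transcripts, 27.9% for *Fdps*, 27.1% for *Idi1* and 13.1% for *Hmgcs1* occurred in the transcripts of other genes, against 0.951% for *Sqle* and 1.33% for *Srebf2*. Processed pseudogenes of *Fdps* were measured above *Fdps* itself, with means of 6.22 RPKM for *Gm3571* and 2.15 for *Gm5873*, and *Gm13502*, a copy of *Idi1*, was at 2.05 RPKM. *Gm37784*, a processed pseudogene that shares 3.4% of the *Insig1* stretches, was at 1.70 RPKM. *Fdps* also shares 1124 of its 4208 exonic bases with *Gm43738*, an overlapping protein-coding gene on the same strand, with a mean of 0.00301 RPKM. Values for *Fdps* and *Idi1* are therefore uncertain where reads were split between copies or with an overlapping gene. In the clone comparison *Gm3571* was higher by 1.16 (limma adjusted p = 0.00366), *Gm5873* by 1.05 (adjusted p = 0.000317) and *Gm13502* by 0.76 (adjusted p = 0.0106), the same direction as the genes they resemble, and against genotype they were at 0.40, 0.37 and 0.38 and did not pass. Strand was not stated for the counting, so *Hmgcs1* and *Lss*, which overlap antisense transcripts (*Gm48342* and *4930483K19Rik*), and *Cyp51* and *Idi1*, which overlap genes on the other strand (*Akap9* and *Gm48574*), cannot be fully separated from these neighbours.

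Over the 8 biological replicates, the genes outside the pathway lists whose levels followed the mean of the members' standardised values most closely were *Rn7s2*, *Tnk2* and *Rn7s1* (each with a Pearson r of 0.971), *Atp6v0d1* and *Btd* (each 0.970). The correlation is over 8 points that share libraries and clone. *Rn7s2*, a copy of the 7SL RNA of the signal recognition particle and nearly identical to *Rn7s1*, was at 11427 and 9124 RPKM (KO) and 8247 and 5093 (rescue) in the exon 4 clone, and at 19268 and 23718 (KO) and 13013 and 17322 (rescue) in the exon 6 clone, technical libraries averaged. Its changes of 0.58 against genotype (limma adjusted p = 0.737) and 1.14 between the clones (adjusted p = 0.0864) did not pass. Its level moved with the members over the replicates, and its part in their values was not tested.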

How the data were processed

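The authors depleted ribosomal RNA from total RNA, built libraries with the Ovation Human FFPE RNA-Seq kit, clipped reads with cutadapt, aligned them to mm10 with segemehl, counted them with rnacounter against GENCODE vM5 and deposited RPKM values, not counts. The submitters' processing notes also list Picard 1.89. Deposited RPKM were rescaled here by median-of-ratios factors from 8523 genes whose mean reached 1 RPKM and that were above 0 in every library, technical libraries were averaged, and log2(RPKM + 0.5) was tested with limma 3.58.1 (R 4.3.3, trended eBayes, two-sided) where a gene's mean reached 0.1 RPKM. Fold changes on this scale understate changes of low genes. P-values were adjusted by Benjamini-Hochberg over all genes tested, and an adjusted p under 0.05 was called. Nothing in the labels says how the cultures of a group were related, so p-values measure the spread between these samples. The authors' own test was edgeR on counts, which were not analysed here. Between 15.6% and 26.6% of the values of 1 to 20 implied reads lay within 0.02 of a whole read, so depths are estimates and no count test was run. Same-numbered KO and rescue replicates deviated together (r = 0.477 for the exon 4 and 0.360 for the exon 6 replicates over 7550 genes, a check on the data and not a label), so fits with the replicate number as a block are given where they change a call. Against genotype the block was the replicate number within a clone. Between the clones it was the replicate number alone, and whether same-numbered replicates of the 2 clones deviated together was not checked. All members and *Lin37* are named, and of each other list the genes called and the 3 with the largest change against genotype and between clones, from which some are given as counts and some are not reported here; the 5 genes most like the members were ranked by Pearson r among genes of at least 1 RPKM. The members and lists were chosen with earlier results of these data known. Python 3.11.15, pandas 2.3.3 and numpy 2.4.6 read the files, and the scripts were tested on simulated data. Gene names came from GENCODE vM21, which matched 44585 of 45232 identifiers.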

Additional observations from a re-analysis of the deposited data

How the results depend on the processing

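The scaling between libraries decided most. Against genotype over both clones, RPKM as deposited called 888 genes (875 higher, 13 lower) in place of 285 and 5 members in place of 1, with a members' median of 1.17 beside a median of 0.64 over all genes. In the exon 6 clone it called 10087 of 16361 genes and 8 members, with a members' median of 1.26 beside 0.69 over all genes. The members' medians were 1.15 in the exon 4 clone (0.57 over all genes) and 1.34 between the clones (0.51 over all genes). For the difference of the changes the median was 0.16 (0.12 over all genes), with 7 genes called. RPKM as deposited turned the sign of *Lipa* (0.71), *Insig2* (0.59) and *Scap* (0.70) against genotype. It also turned that of *Cyp51* in the exon 4 clone (0.89), and of *Mylip* (0.29) and *Rnf139* (0.46) between the clones. With the scaling factor as a covariate 0 members passed, the members' median was 0.18, and *Fasn* and *Scd2* turned to -0.16 and -0.18. Without the clone covariate 0 members passed (*Hmgcs1* adjusted p = 0.875).

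Without a minimum level limma called 167 genes against genotype, 0 in the exon 6 clone, 60 for the difference of the changes and 1002 between the clones. A minimum of 1 RPKM called 103 over both clones (6 members tested), 75 for the exon 6 clone (8 members tested) and 1 for the exon 4 clone (5 members tested). A pseudocount of 0.1 gave members' medians of 0.53 over both clones, 0.60 for the exon 4 clone and 0.89 between the clones, and a pseudocount of 1 gave 0.58 between the clones. Quantile normalization gave 0.58 in the exon 4 clone. In the exon 6 clone technical library 2 alone called 73 genes and put *Fdps* at -0.0114, and technical libraries taken as separate called 1 member, *Insig1* (0.75, adjusted p = 0.0337). Both clones in 1 fit called 105 genes in the exon 4 clone. With the replicate block 2 members passed against genotype, 1 gene was called in the exon 4 clone, and apart from *Insig1* and *Idi1* the block changed no other call among the members and the other genes reported here for which it was computed (not, for example, *Acat2*, *Ebp*, *Fdft1*, *Cdh1*, the pseudogenes or *Rn7s2*).

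Leaving out each replicate in turn gave 178 to 280 genes, 0 to 1 members called and a median of 0.27 to 0.46 over both clones, 0 to 72 genes and a median of 0.22 to 0.50 in the exon 6 clone, a median of 0.26 to 0.62 in the exon 4 clone, -0.27 to 0.0802 for the difference of the changes, and 1011 to 3091 genes with a median of 0.69 to 0.78 between the clones. An arm left with 1 replicate was assumed to vary like the other groups. Counts over all genes moved by over 1.5 times without either exon 6 KO replicate (185 and 178 against genotype, 1011 and 1033 between the clones) and, between the clones, without either exon 6 rescue replicate (1308 and 1225). *Cyp51* changed sign against genotype without exon 6 KO replicate 2 (-0.014 over both clones, -0.0007 for the exon 6 clone), without exon 6 rescue replicate 1 (-0.0344 and -0.0518) and, for the exon 4 clone, without exon 4 rescue replicate 2 (0.0562), within ranges of -0.0344 to 0.0713, -0.0518 to 0.2124 and -0.1018 to 0.0562. *Fdps* did so in the exon 6 clone without exon 6 rescue replicate 2 (-0.0037).

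*Hmgcs1* stayed past the threshold against genotype in 17 of 21 alternatives, with log2 changes of 0.54 to 1.62 and adjusted p from 0.00232 to 0.875. Between the clones *Cyp51*, *Sqle* and *Lss* passed in 21 of 21, *Hmgcs1* in 20 of 21 (adjusted p = 0.0527 without the genotype covariate) and *Fdps* in 18 of 20 (0.0928 without a minimum level, 0.0606 with the scaling factor). Values of *Fdps* and *Idi1* rest on the fewest reads. The cause of these changes was not tested.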

Other observations

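SREBP proteins also drive the synthesis of fatty acids, and a list of 10 of these genes was compared in the same fits. Against genotype 0 of 10 passed limma's test, where 1.61% of all genes were called higher. Of the 10 genes 6 had positive changes, with a median of 0.16, beside 41.0% and -0.03 over all genes. The largest values were 0.39 for *Fads1*, a desaturase, 0.36 for *Fasn*, the fatty acid synthase, and 0.32 for *Scd2*, a second desaturase. Between the clones limma called 6.84% of all genes higher in the exon 6 clone, with a median of -0.05. Of the 10 listed genes 5 were higher, with a median of 0.60. These were *Acly*, which supplies cytosolic acetyl-CoA (1.29), *Fasn* (0.91), *Fads2* (0.85), *Scd2* (0.78) and *Elovl6*, an elongase (0.68). *Acly* and *Elovl6* passed in 21 of 21 alternatives and *Fads2* in 20 of 21, but *Fasn* in 14 of 21 and *Scd2* in 11 of 21. Both were lost with the scaling factor as a covariate and without exon 6 KO replicate 1 (limma adjusted p = 0.0685 and 0.0988), exon 6 KO replicate 2 (0.0857 and 0.0979), either exon 6 rescue replicate or exon 4 rescue replicate 2, and *Scd2* also without exon 4 KO replicate 2 (0.0772). The summed level of the 10 genes ran from 37.8 to 102 RPKM over the libraries.

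A list of 7 genes of sterol efflux and LXR, many of them controlled by LXR rather than SREBP, had 2 genes at 1 RPKM or more in each library. Over both clones 3 of 7 were tested and 0 of 3 passed in either comparison. Over all genes limma called 1.61% higher in KO, and 6.84% higher and 6.71% lower in the exon 6 clone. The summed level of the 7 genes was 5.02 to 7.24 RPKM. Of 7 genes of the isoprenoid side branches, which draw on the product of *Fdps*, 0 of 7 passed in either comparison. Their median against genotype was -0.09, beside -0.03 over all genes, and their summed level was 8.93 to 10.6 RPKM.

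Among all 7550 genes ranked by how closely they followed the members' mean over the 8 biological replicates, a description with no test, *Nsdhl* was at rank 2 (Pearson r = 0.978) and *Msmo1* at rank 3 (0.977), with *Hmgcs1* and *Sqle*, themselves part of that mean, at ranks 1 and 4. Among the epithelial markers, the cadherin *Cdh1* was lower in the exon 6 clone by 0.59 on the log2 scale from a mean of 0.199 RPKM over all replicates.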
